A study of Homo sapiens with 6 samples.

Results

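ATF4 and CHOP form the transcriptional core of the integrated stress response. The 10 genes described here are ATF4, DDIT3 (which encodes CHOP), ATF3, CEBPB, CEBPG, NUPR1, TRIB3, CHAC1, DDIT4 and SESN2. They were taken as a list of symbols by their known roles, with no expression threshold in the rule, although earlier results of these data were known when the list was made. All 10 were found among the 63241 genes in the files, and all 10 were among the 15295 genes with enough counts to be tested. NUPR1 reached that level only in the treated libraries. RNA-seq was performed on MDA-MB-231, an established line of triple-negative mammary carcinoma, with the genotype given as wild-type in the labels. The cells were exposed for 24 h to 5 μM nitidine chloride (NCD), a plant alkaloid, or to 0.1% DMSO as the vehicle, with 3 libraries in each group. The share of DMSO in the NCD wells was not given in the sources used here, and neither was whether the 3 libraries of a group came from separate cultures, so that p-values measure only the spread between these libraries. For NCD replicates 2 and 3 the description text carries another line number than the cell line field, which reads MDA-MB-231 for all 6.

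In this response, kinases that sense unfolded protein, amino acid shortage, double-stranded RNA or heme shortage phosphorylate the initiation factor eIF2α. Bulk translation then falls, but the ATF4 mRNA is translated more, owing to upstream reading frames in its leader. ATF4 is a bZIP transcription factor that pairs with C/EBP proteins and binds composite C/EBP-ATF elements of genes for amino acid supply and stress adaptation. One of these genes is DDIT3, whose product CHOP is itself a bZIP factor tied to cell death under lasting stress. Because ATF4 is controlled largely at translation, its mRNA level is not a measure of its protein, and no protein was measured in these libraries.

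NCD-treated libraries held more RNA of every core gene than DMSO-treated libraries. By the rule used throughout, a Benjamini-Hochberg adjusted p below 0.05 from edgeR's quasi-likelihood test and an absolute log2 fold change above 1, 8 of the 10 genes were called higher and 0 were called lower. Over all tested genes 13.5% were called higher and 17.5% were called lower. ATF4 and DDIT4 passed the adjusted p but not the fold threshold. NUPR1, among those called, had too few DMSO counts to be tested without its NCD libraries. At the adjusted p alone, all 10 were higher, against 35.3% of all tested genes. In all 10, each NCD library lay above each DMSO library, a pattern shown by 37.2% of all tested genes. The log2 fold changes ranged from 0.61 for ATF4 to 3.74 for CHAC1, with a median of 2.06, while all tested genes had a median of 0.04. In bulk RNA a change in the number of responding cells and a change in RNA per cell cannot be told apart.

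**Figure D1:**
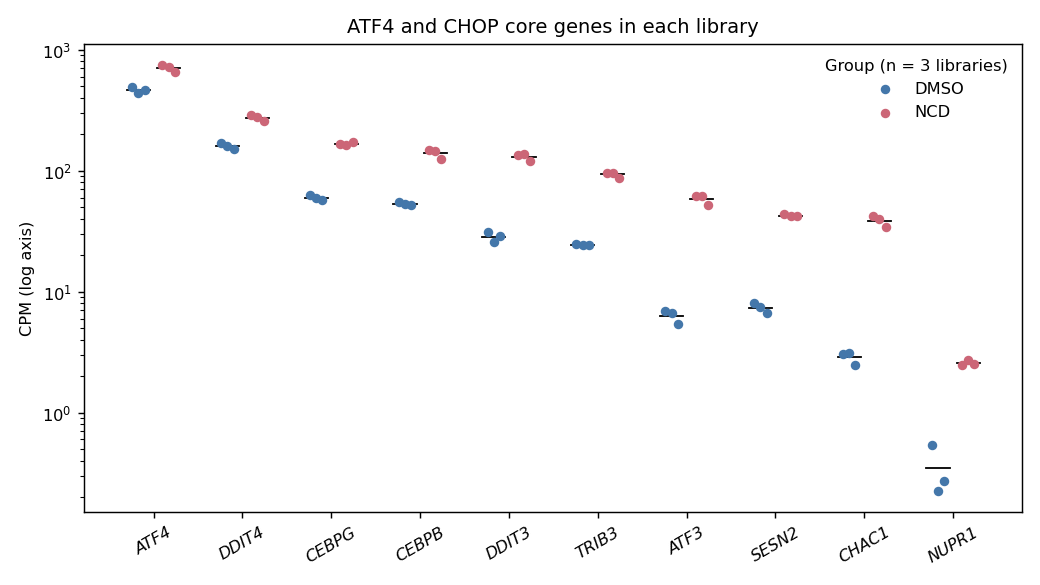
Expression of the 10 core genes in each library, as CPM, counts scaled to library size, on a log axis, with 3 DMSO points and 3 NCD points per gene and a bar at the group mean. In every gene the NCD points lie above the DMSO points, closest for ATF4 (435.4 to 491.2 against 651.5 to 743.8 CPM) and farthest apart for CHAC1 (2.47 to 3.11 against 33.9 to 41.9 CPM).

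Some core genes hold the letters of a stress-response element near an annotated start, and these stretches are shown because ATF4 and its C/EBP partners are known to bind such elements. No binding was measured here. RefSeq windows (GRCh38.p14), running from 250 bases before to 50 bases after a start, were held for 9 of the 10 genes, in 16 windows. NUPR1 has none in that table. The C/EBP-ATF response element, searched as TGATGNAA on both strands, was found in windows of ATF3, CHAC1 and CEBPG. The same letters occur in 4.46% of the 27305 genes with windows. Capitals mark the matched letters, and the CHAC1 match reads on the opposite strand.
ATF3: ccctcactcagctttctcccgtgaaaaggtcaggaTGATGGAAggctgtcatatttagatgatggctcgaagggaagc
CHAC1: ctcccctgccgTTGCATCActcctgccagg
CEBPG: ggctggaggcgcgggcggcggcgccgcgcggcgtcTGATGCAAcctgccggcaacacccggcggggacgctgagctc
The ATF3 stretch (chr1:212565181-212565258, plus strand) precedes the most upstream annotated start of the gene. The CHAC1 stretch (chr15:40953251-40953280, plus strand) lies 5′ of the RefSeq start but inside the untranslated leader of longer GENCODE transcripts. The CEBPG stretch (chr19:33374036-33374112, plus strand) precedes the more downstream of its RefSeq starts and falls in an intron of a longer transcript. Most annotated ATF3 transcripts start well downstream of this window. The first matched base lay 191, 209 and 42 bases before the respective start.

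The windows of DDIT3 held no TGATGNAA. They held the AP-1 element TGACTCA, found in 6.05% of genes, and a near-match to the endoplasmic reticulum stress element, searched as CCAAT followed after 9 bases of any kind by CCAC. That spelling leaves out the last letter of the usual element and was chosen after the DDIT3 sequence was seen, and it occurs in 0.381% of genes. The stretch is chr12:57520562-57520649 on the minus strand, inside an intron of a longer DDIT3 transcript, with the element in capitals.
DDIT3: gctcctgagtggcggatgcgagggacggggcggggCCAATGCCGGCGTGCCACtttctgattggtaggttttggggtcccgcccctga
The windows of ATF4, CEBPB, TRIB3, DDIT4 and SESN2 held none of these elements, nor the cAMP response element TGACGTCA, which occurs in 2.25% of genes. No match overlapped another. A match is only a description of the letters, and its absence says only that they are not in these windows.

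ATF4 (ENSG00000128272, chr22:39519695-39522685, plus strand, GENCODE 29 on GRCh38) is the factor at the head of the core. It had 8150, 7696 and 8410 counts in DMSO replicates 1 to 3 and 17024, 13923 and 13973 counts in NCD replicates 1 to 3. Scaled to library size, ATF4 went from 462.5 ± 27.9 to 705.2 ± 48.0 CPM (SD, n = 3 each), with every NCD library above every DMSO library. Its log2 fold change was 0.61 (standard error, SE, 0.07, Benjamini-Hochberg adjusted p = 7.44e-05, edgeR's quasi-likelihood test), which 24.6% of tested genes exceeded. ATF4 was thus the most abundant and the least changed of the core genes on the scale of relative expression. Its annotated pseudogenes ATF4P1 to ATF4P4 held at most 8 counts in any library.

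DDIT3 (ENSG00000175197, chr12:57516588-57521737, minus strand) encodes CHOP, which pairs with C/EBP proteins. Its libraries gave DMSO counts of 516, 451 and 522 and NCD counts of 3070, 2659 and 2558, so that the lowest NCD library was far above the highest DMSO library. The change from 28.4 ± 2.80 to 130.3 ± 9.73 CPM was a log2 fold change of 2.20 (SE 0.09, adjusted p = 9.66e-08, edgeR). On the opposite strand DDIT3 overlaps MARS1, the methionyl-tRNA synthetase gene, with up to 4956 counts in a library, and MBD6, with up to 906. Whether the counting used strand is not given in the sources used here, which makes the DDIT3 value uncertain. MARS1 itself had a log2 fold change of 0.23.

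Per unit of exon length, DDIT3 mRNA stood at 0.113 to 0.122 of the ATF4 level with DMSO and at 0.347 to 0.367 with NCD. This ratio did not overlap between the groups (exact two-sided permutation p = 0.1, the smallest that 3 against 3 libraries allow). The core genes together summed to 774.6 to 853.5 CPM with DMSO and 1541 to 1729 CPM with NCD. ATF4 supplied 56.2% to 58.5% of that sum with DMSO and 42.3% to 43.0% with NCD. The share of ATF4 in the core's RNA was thus lower in every NCD library than in every DMSO library.

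ATF3 (ENSG00000162772, chr1:212565334-212620777, plus strand), a bZIP factor made early under many stresses, gave DMSO counts of 115, 118 and 99 and NCD counts of 1415, 1193 and 1116. Its level went from 6.35 ± 0.805 to 58.5 ± 5.62 CPM (SD, n = 3 each). The log2 fold change was 3.21 (SE 0.12, adjusted p = 5.71e-08, edgeR), the second highest of the core. ATF3 also has the longest span of the core, 55.4 kb, against 2.0 to 34.7 kb for the other genes.

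CEBPB (ENSG00000172216, chr20:50190734-50192689, plus strand) and CEBPG (ENSG00000153879, chr19:33373330-33382686, plus strand) encode C/EBP partners of ATF4 and CHOP. CEBPB gave DMSO counts of 913, 945 and 948 and NCD counts of 3407, 2817 and 2683, and rose from 53.5 ± 1.53 to 139.9 ± 12.9 CPM (log2 fold change 1.39, SE 0.08, adjusted p = 5.65e-07, edgeR). CEBPG gave DMSO counts of 1045, 1055 and 1043 and NCD counts of 3796, 3123 and 3669, and rose from 59.9 ± 2.91 to 166.2 ± 4.75 CPM (log2 fold change 1.47, SE 0.06, adjusted p = 9.66e-08, edgeR). Neither gene overlapped between groups, and both were the smallest of the called changes. The ratio of CEBPB to CEBPG per exon length was 1.97 to 2.05 with DMSO and 1.65 to 2.03 with NCD, so that a shift between the partners was not detected (exact two-sided permutation p = 0.7). The low end came from NCD replicate 3, where CEBPB was lowest and CEBPG highest of the NCD libraries.

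NUPR1 (ENSG00000176046, chr16:28532708-28539174, minus strand), a small stress-induced chromatin cofactor, was the rarest of the core. Its libraries gave DMSO counts of 9, 4 and 5 and NCD counts of 57, 53 and 54. The NCD libraries lay close together and well above the DMSO libraries, among which replicate 1 had the most. The rise from 0.348 ± 0.170 to 2.58 ± 0.138 CPM was a log2 fold change of 2.89 (SE 0.32, adjusted p = 3.99e-05, edgeR), the least precise of the core. Its DMSO counts alone would not have admitted it to testing. A gene admitted through its NCD libraries could hardly be called lower, so this p and this call add little support. From the summed counts, 18 with DMSO and 164 with NCD, NCD stood at 7.51 times DMSO (exact 95% limits 4.61 and 12.99, which cover counting error only).

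TRIB3 (ENSG00000101255, chr20:362835-397559, plus strand) encodes a pseudokinase that binds ATF4 and CHOP and restrains them. Its libraries gave DMSO counts of 412, 427 and 444 and NCD counts of 2209, 1856 and 1870. Both groups were tight, at 24.4 ± 0.346 and 93.2 ± 5.25 CPM (SD, n = 3 each). The log2 fold change was 1.93 (SE 0.07, adjusted p = 5.09e-08, edgeR).

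CHAC1 (ENSG00000128965, chr15:40952962-40956519, plus strand), which encodes a glutathione-degrading enzyme, had the largest change of the core. Its libraries gave DMSO counts of 51, 55 and 45 and NCD counts of 960, 770 and 728. The level went from 2.88 ± 0.362 to 38.6 ± 4.15 CPM, a 13.4-fold rise (log2 fold change 3.74, SE 0.13, adjusted p = 4.56e-08, edgeR). Only 0.33% of all tested genes had a higher log2 fold change.

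DDIT4 (REDD1; ENSG00000168209, chr10:72273920-72276036, plus strand) and SESN2 (sestrin 2; ENSG00000130766, chr1:28259527-28282491, plus strand) encode inhibitors of mTORC1, the kinase complex that couples nutrients to growth. DDIT4 gave DMSO counts of 2818, 2807 and 2731 and NCD counts of 6639, 5378 and 5499, which scaled to 159.4 ± 10.1 and 274.9 ± 17.1 CPM. Its groups did not overlap, but its log2 fold change of 0.79 (SE 0.07, adjusted p = 1.05e-05, edgeR) stayed under the threshold. SESN2 gave DMSO counts of 134, 132 and 121 and NCD counts of 997, 817 and 897, and rose from 7.39 ± 0.724 to 42.6 ± 0.904 CPM (log2 fold change 2.53, SE 0.09, adjusted p = 5.36e-08, edgeR). The abundant inhibitor was thus the one with the smaller change.

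Per length, as TPM (transcript share, scaled by exon length and library) over the union of annotated exons, the order of the core with DMSO was ATF4 (550.4), DDIT4 (232.0), CEBPB (81.9), DDIT3 (64.9), CEBPG (40.7), TRIB3 (21.3), SESN2 (6.41), ATF3 (4.71), CHAC1 (4.20) and NUPR1 (0.181). Of these neighbours, only ATF3 and CHAC1 overlapped between libraries. With NCD the order was ATF4 (951.1), DDIT4 (453.0), DDIT3 (338.0), CEBPB (242.3), CEBPG (128.0), TRIB3 (92.1), CHAC1 (63.5), ATF3 (49.1), SESN2 (41.8) and NUPR1 (1.55), with no overlap between neighbours. On this scale DDIT3 had passed CEBPB, and CHAC1 and ATF3 had passed SESN2. As CPM with NCD, DDIT3 (mean 130.3) stayed below CEBPB (139.9) in each library, and CHAC1 (38.6) below SESN2 (42.6). ATF3 passed SESN2 as CPM too, from means of 6.35 against 7.39 with DMSO to 58.5 against 42.6 with NCD. ATF4, DDIT4 and NUPR1 kept their places at the ends of the order.

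On the CPM scale the libraries of a group differed in a shared way. NCD replicate 3 had the lowest CPM of its group for 8 of the 10 genes, the exceptions being CEBPG and NUPR1, and DMSO replicate 1 had the highest of its group for 9. The DMSO ranking depended on the scale. As TPM, DMSO replicate 2 was highest of its group for DDIT4, CEBPB, CEBPG, TRIB3, SESN2, ATF3 and CHAC1. SESN2 as TPM was also highest in NCD replicate 3 among the NCD libraries. Over all genes, NCD replicates 1 and 2 were the closest pair and NCD replicate 3 stood apart (chi-square per degree of freedom 2.06 against 14.1 and 15.9). Among the DMSO libraries replicate 2 stood apart, at 16.2 from replicate 1 and 8.33 from replicate 3, which were 4.29 from each other. Without NCD replicate 3 or DMSO replicate 2, 8 of the 10 core genes were again called higher, as they were without any other single library.

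Among the 11010 other genes averaging 5 CPM or more, those whose log2 CPM followed ATF4 most closely across the 6 libraries were MRPS18B, MTX1 and CMAS, with root mean square differences of 0.0166 to 0.0236 after centring. For DDIT3 they were IFI30, PLEKHO1 and CA2, at 0.0622 to 0.0783. With 6 libraries in 2 groups these likenesses rest largely on the size of the group difference.

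Family relatives of the core genes were examined to see whether the change extended to them. Of 20 relatives, 18 were tested, and 3 were called higher and 4 lower, with a median log2 fold change of 0.60. The share called higher was 16.7%, near the 13.5% of all tested genes, of which 17.5% were called lower. At the adjusted p alone, 10 of the 18 were higher and 5 lower, against 35.3% and 34.1% of all tested genes. In 11 of them each NCD library lay above each DMSO library, against 37.2% of all tested genes. The relatives called higher were JDP2, a repressor related to ATF3, SESN3, another sestrin, and CEBPA. JDP2 rose from 7.80 to 41.7 CPM (log2 fold change 2.42, SE 0.14) and SESN3 from 2.57 to 7.999 CPM (1.64, SE 0.17). CEBPA was near the floor with DMSO, at 1, 3 and 2 counts, and had 34, 36 and 31 with NCD, which is 13.9 times as much (exact 95% limits from counting error, 6.16 and 38.7). CEBPA was tested only through its NCD libraries.

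The 4 relatives called lower were ATF6, the membrane-bound sensor of another stress arm (117.2 to 15.1 CPM, log2 fold change -2.96), ATF2 (-1.36), TRIB2 (-1.29) and ATF6B (-1.15). ATF6 and ATF2 have long spans, 197.8 and 96.1 kb, whereas TRIB2 and ATF6B span 25.8 and 13 kb. The remaining log2 fold changes were 0.16 for ATF5, -0.17 for ATF1, -0.98 for ATF7, 0.69 for BATF, 0.89 for BATF2, 0.81 for BATF3, 0.79 for CEBPD, 0.64 for TRIB1, 0.26 for CHAC2, 0.64 for DDIT4L and 0.56 for SESN1, none of them called. Of these, BATF2, BATF3, CEBPD, TRIB1, CHAC2, DDIT4L and SESN1 were higher, and ATF7 lower, at the adjusted p alone. CEBPE and NUPR2 had 0 counts in every library.

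**Figure D2:**
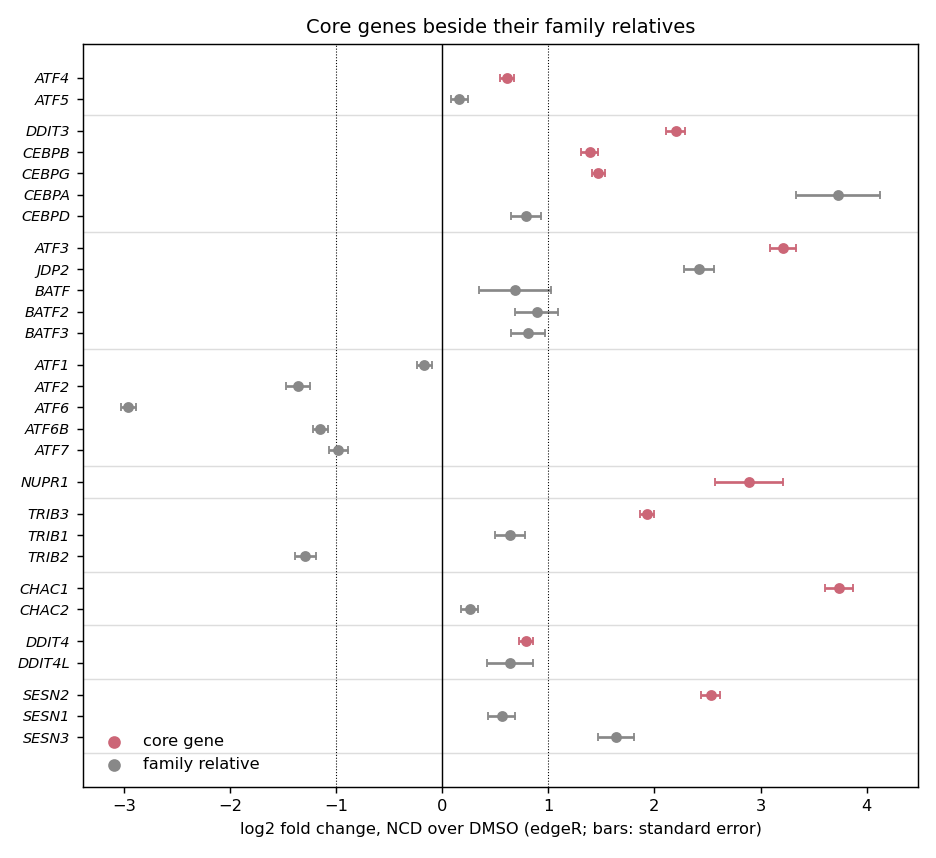
Log2 fold change of each core gene and of its tested family relatives, NCD over DMSO, with the standard error as a bar, grouped by family. Dotted lines mark the fold threshold of 1. Within the groups as drawn, the log2 fold change is larger for ATF4 than ATF5, for ATF3 than JDP2 and for SESN2 than SESN3. That of CEBPA, at 1 to 3 counts per DMSO library, is larger than those of DDIT3, CEBPB and CEBPG.

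Ratios of a core gene to a relative, per exon length and library, were compared for 11 pairs. For 9 of the pairs, DDIT3 to ATF4 among them, the ratio was higher in every NCD library than in every DMSO library, each at the smallest exact permutation p of 0.1, and none can pass an adjustment over the pairs. The ratio of TRIB3 to TRIB2 moved from 0.507 to 0.608 with DMSO to 4.49 to 6.16 with NCD, and that of CHAC1 to CHAC2 from 0.0404 to 0.0533 to 0.489 to 0.548. SESN2 stood at 1.53 to 1.80 times SESN1 with DMSO and at 6.04 to 7.25 times with NCD. The ratios of CEBPB to CEBPG and of DDIT4 to DDIT4L overlapped between groups, the latter at 92.4 to 136.1 with DMSO and 109.6 to 159.7 with NCD.

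Upstream of ATF4 lie eIF2α itself, its kinases and their activators, the phosphatase subunits that reverse its phosphorylation, and the exchange factor eIF2B, which phosphorylated eIF2 inhibits. Of 16 genes of this axis tested, 2 were called higher and 2 lower, and the median log2 fold change was -0.05. The share called higher, 12.5%, was near the 13.5% of all tested genes. PPP1R15A (GADD34), the inducible phosphatase subunit that reverses the response, rose from 184.5 to 444.6 CPM (log2 fold change 1.27, SE 0.05, adjusted p = 1.08e-07, edgeR). EIF2B4 rose (1.16) and EIF2B3 fell (-1.95), both subunits of the exchange factor eIF2B, and EIF2AK4, which encodes the amino acid sensor GCN2, fell (-1.12). EIF2B3 and EIF2AK4 span 136.2 and 101.4 kb, and EIF2B4 spans 6.1 kb. The other kinase genes were not called. EIF2AK3, encoding the unfolded protein sensor PERK, was lower but under the fold threshold (-0.53, adjusted p = 0.000785, edgeR). EIF2AK1, encoding the heme sensor HRI, was higher but under it (0.43, adjusted p = 9.63e-05, edgeR). EIF2AK2, encoding the RNA sensor PKR, had a log2 fold change of 0.05, with overlapping groups.

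Amino acid synthesis is the classic ATF4 programme, and 9 of its 14 tested genes were called higher and 2 lower, with a median of 1.26. The share called higher was 64.3%, against 13.5% of all tested genes, of which 17.5% were called lower. CTH, which makes cysteine, rose from 11.8 to 114.2 CPM (3.27, SE 0.09) and ASNS, asparagine synthetase, from 100.1 to 634.8 CPM (2.66, SE 0.09). The serine and one-carbon genes PHGDH, PSAT1, PSPH, SHMT2 and MTHFD2 rose by 1.13 to 1.62 on the log2 scale. MTHFD1L (-2.07) and BCAT1 (-2.17) fell, and they span 236.3 and 139.4 kb. PHGDH and ALDH1L2, called higher, span 95.8 and 64.8 kb. CBS, with at most 1 count, was not tested. ALDH1L2, among those called higher, had DMSO counts of 3, 2 and 6 and was tested only through its NCD libraries.

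Of 10 amino acid transporters, 4 (40.0%) were called higher and 1 lower (median 0.70), against 13.5% and 17.5% of all tested genes. SLC6A9 (2.82), SLC1A4 (2.74) and SLC3A2 (1.61), the heavy chain shared by several exchangers, rose, as did SLC1A5 (1.04), whose call was lost without NCD replicate 1, where 3 transporters were called higher. The exchanger chains SLC7A11 and SLC7A5 had log2 fold changes of -0.75 and 0.64, and SLC7A1 fell (-1.01), a call that was lost without DMSO replicate 2 or NCD replicate 2 and with library totals. Among 20 cytosolic tRNA synthetases, another group of ATF4 targets, 2 were called higher (WARS1, 1.39, and SARS1, 1.13) and 2 lower, FARSB at -1.84 among them, with a median of 0.09. That is 10.0% called higher, against 13.5% of all tested genes. FARSB and SLC7A1 span 85.8 and 86.3 kb.

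Of 11 other ATF4 targets tested, 5 (45.5%) were called higher and 1 lower (median 0.94), against 13.5% and 17.5% of all tested genes. INHBE, an activin subunit, gave DMSO counts of 1, 7 and 5 and NCD counts of 472, 350 and 324 (6.15, SE 0.30). ADM2 (2.77), GDF15 (3.52), STC2 (3.87) and KLHL24 (1.65) rose, and NIBAN1, with a span of 183.8 kb, fell (-2.01). INHBE, GDF15 and STC2 had too few DMSO counts to be tested without their NCD libraries. FGF21 was not tested, at 0 counts in each DMSO library and 4, 4 and 2 counts with NCD.

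Among 8 genes of cell death and redox control linked to CHOP, 3 (37.5%) were called higher and 1 lower (median 0.05). These compare with 13.5% and 17.5% of all tested genes. Those called higher in this list were the pro-death BH3-only genes BBC3 (2.13), PMAIP1 (1.69) and BCL2L11 (1.60). The one called lower was the survival gene BCL2 (15.2 to 2.71 CPM, -2.48), which spans 196.8 kb. The other genes of this list were not called. The oxidase gene ERO1A (-0.83, adjusted p = 9.75e-06, edgeR) and the death receptor gene TNFRSF10B (-0.36, adjusted p = 0.000728, edgeR) were lower but under the fold threshold. TNFRSF10A and MCL1 had log2 fold changes of 0.09 and 0.0, with overlapping groups.

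The other arms of the unfolded protein response showed mixed values. Of 14 genes of the ATF6 arm, 1 was called higher (HERPUD1, 1.41) and 1 lower (DNAJC3, -1.39), with a median of -0.21. The share called higher was 7.1%, against 13.5% of all tested genes. The chaperone gene HSPA5 (BiP) had a log2 fold change of -0.17. Of 7 genes of the IRE1-XBP1 arm, XBP1 (1.15) and DNAJB9 (1.18) were called higher and SEC24D (-1.20) lower, with a median of -0.31. That is 28.6% called higher, against 13.5% of all tested genes, of which 17.5% were called lower. DNAJC3 and SEC24D span 117.9 and 115.9 kb. The gene counts do not separate spliced from unspliced XBP1.

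Several core genes are also known targets of p53 or hypoxia signalling, and the products of DDIT4 and SESN2 inhibit mTORC1. Of 18 p53 targets, 8 were called higher and 0 lower (median 0.87; 1 was lower at the adjusted p alone, AEN at -0.38), with XPC at 2.26, TP53I3 at 1.48 and GADD45A at 1.08. MDA-MB-231 carries mutant p53. Of 14 hypoxia genes, 0 were called higher and 8 lower (median -1.04), 4 of them with scaling by library totals, and none had a log2 fold change above 0 in edgeR's fit. The lower ones included PDK1 at -2.66, NDRG1 at -2.04 and BNIP3 at -1.21, which span 53.3, 64.9 and 15.6 kb. DDIT4, also a hypoxia target, had a log2 fold change of 0.79 and was not called. Of 17 mTORC1 regulators, 1 was called higher and 3 lower (median -0.28). Over all tested genes 13.5% were called higher and 17.5% lower. The lower ones were RPTOR (-2.67), MTOR (-1.29) and WDR59 (-1.08), which span 128.8 to 421.6 kb.

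**Figure D3:**
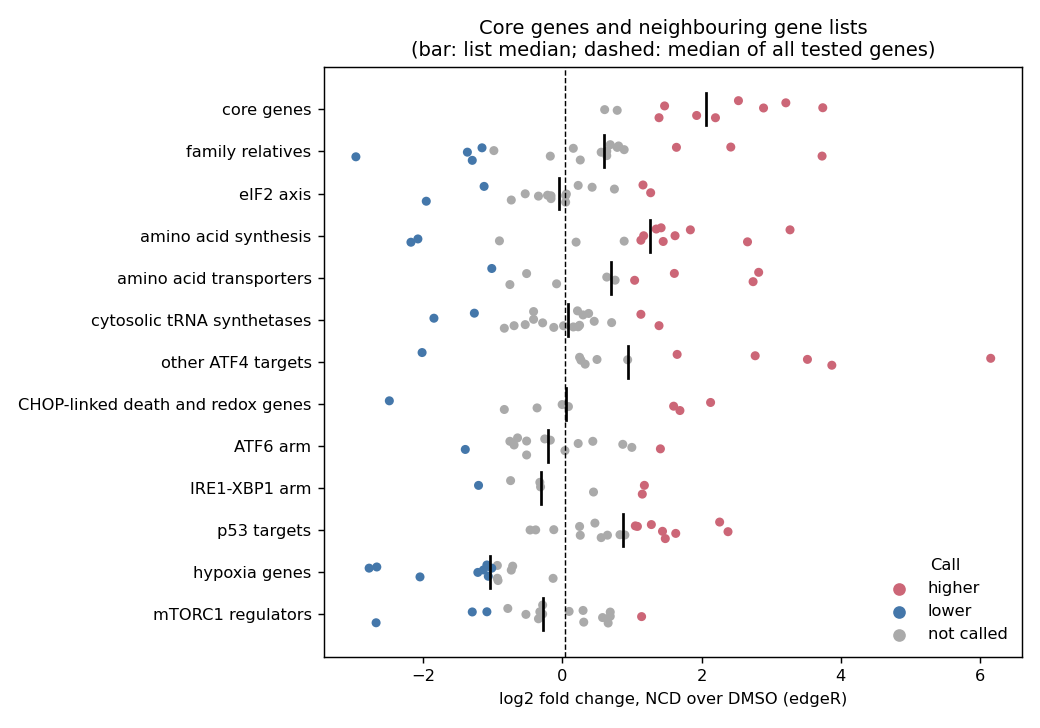
Log2 fold change of every tested gene, NCD over DMSO, in the core and in 12 other lists, 1 point per gene coloured by its call, with a bar at the list median and a dashed line at 0.04, the median of all tested genes. The core has the highest median (2.06), followed by amino acid synthesis (1.26), and the hypoxia genes the lowest (-1.04).

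Gene span moved with the calls in this comparison. Among protein-coding genes of at most 50 kb, 17.9% were called higher and 3.31% lower, with a median log2 fold change of 0.31, and among longer ones 3.82% were called higher and 42.9% lower. Except for ATF3 at 55.4 kb, the core genes are under that length. In the other lists, 19 of 26 genes called lower and 3 of 40 called higher spanned more than 50 kb. The part of gene span in these values was not tested.

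**Figure D4:**
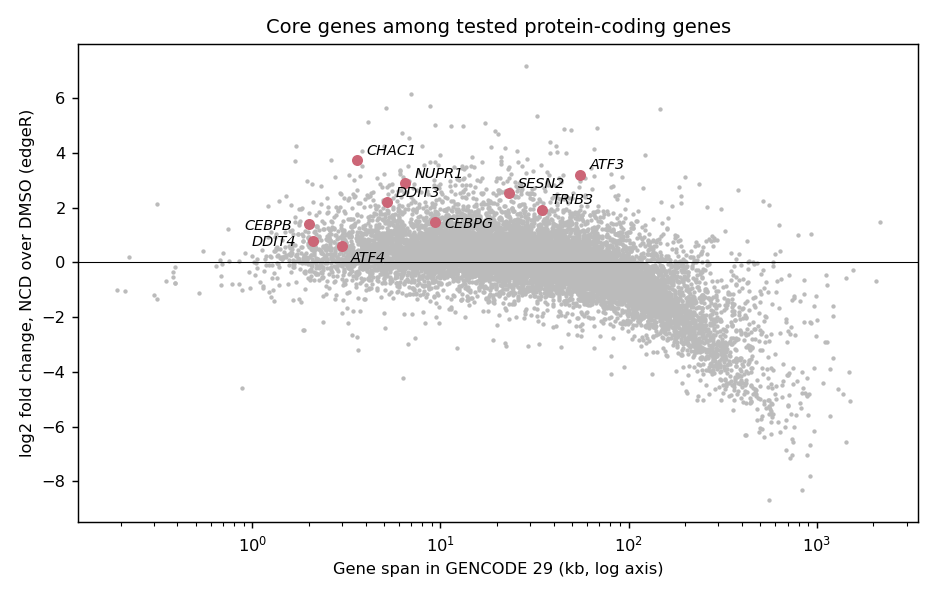
Log2 fold change, NCD over DMSO, against gene span in kb on a log axis for all tested protein-coding genes (grey) and the core genes (named, red). The cloud bends down at long spans, and the core genes lie in its upper part at spans of 2.0 to 55.4 kb.

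The libraries held 18223594 to 19410833 counts with DMSO and 18232169 to 21629653 with NCD. Markers of MDA-MB-231 summed to 6579 to 6957 CPM with DMSO and 4293 to 4691 with NCD, while leukocyte and endothelial markers summed to at most 1.39 CPM in any library. Luminal markers went from 42.0 to 44.7 to 67.1 to 71.9 CPM, epithelial markers from 3.67 to 4.40 to 7.71 to 9.09, and fibroblast markers from 2.38 to 3.73 to 12.8 to 14.8. The luminal sum was mostly ERBB2 (mean 37.2 CPM with DMSO and 61.0 with NCD). Of the 4 fibroblast markers COL1A1 carried the rise (mean 2.87 CPM with DMSO and 13.6 with NCD), COL1A2 was at 0 in every library, DCN had 1 count in a single library, and PDGFRA had at most 3 counts. Their part in the results was not tested. Scaling by library totals in place of TMM moved the median change over all tested genes up by 0.197 (log2) and turned the split of calls from 2067 higher and 2669 lower to 2793 and 2181, while 8 core genes stayed called higher.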

How the data were processed

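Expression was measured by RNA-seq of MDA-MB-231 cells, 3 DMSO and 3 NCD libraries. The authors aligned reads with HISAT2 and deposited expected counts per Ensembl gene from RSEM, without normalization. The submitters' processing notes name GRCh38, and the annotation release and strand setting are not given in the sources used here. In each library 25 lines without a gene or a count were skipped.

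Expected counts were rounded and tested with edgeR 4.0.16 in R 4.3.3 (filterByExpr, TMM, glmQLFit and glmQLFTest). Standard errors were derived from the log2 fold change and its F statistic (their ratio, with F under a square root). CPM uses TMM-scaled totals, and TPM uses GENCODE 29 exon unions. The authors' cutoffs were kept, with adjusted p. Tables, exact tests and plots were made with pandas 2.3.3, scipy 1.17.1, numpy 2.4.6 and matplotlib 3.10.9. On simulated counts 186 of 197 genes changed by 1.5 on the log2 scale, of 14699 tested, were recovered (94.4%), with 10 false calls. In the real libraries 4736 of 15295 tested genes were called, and recovery at so large a share was not tested.

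The members and lists were chosen with earlier results of these data known. Named genes are the core genes, every tested relative, the 3 called genes of each list with the smallest p at a mean of at least 5 CPM, and the 3 genes most like ATF4 and DDIT3. Not every gene that this rule covers is reported here. Other named genes, the family ratios, the motifs and the gene span grouping were chosen after values were seen. Alternatives were DESeq2 1.42.0 with adjusted or unadjusted P, limma-voom (limma 3.58.1), RLE size factors or library totals, a minimum of 10 counts in all libraries or no filter, a prior count of 2, calls without the fold threshold, a replicate block, and fits that each omitted 1 library. The depth limits genes with a few counts per library, and intervals cover counting error only.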

Additional observations from a re-analysis of the deposited data

How the results depend on the processing

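The 8 core genes called higher stayed 8 in number under every alternative except at least 10 counts in every library, where NUPR1 was not tested and 7 were called, and no fold threshold, where all 10 were, with ATF4 at 0.609 and DDIT4 at 0.786. No core gene changed direction. Scaling by library totals gave 0.806 for ATF4 and 0.983 for DDIT4. With each library left out in turn, log2 fold changes ranged from 0.545 to 0.646 for ATF4, 3.608 to 3.810 for CHAC1 and 2.650 to 3.306 for NUPR1. No consistent pairing by replicate number was seen (correlations of deviations 0.314, -0.27 and 0.0252), which does not exclude shared handling. With the replicate block 4723 genes were called in place of 4736, 8 core genes among them.

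With library totals, 5 relatives were called higher, 1 eIF2 axis gene lower, 0 transporters lower, 3 ATF6 arm genes higher, 0 IRE1-XBP1 genes lower and 4 hypoxia genes lower. With at least 10 counts in every library, 1376 genes were called higher, among them 2 other ATF4 targets, since fewer genes were tested. With no fold threshold, 10602 genes were called, 5393 of them higher. The calls were then 10 relatives higher, 5 eIF2 axis genes higher and 6 lower, 3 transporters lower, 9 tRNA synthetases higher and 8 lower, 8 other ATF4 targets higher, 3 CHOP-linked genes lower, 5 ATF6 arm genes higher and 7 lower, 4 IRE1-XBP1 genes lower, 14 p53 targets higher and 1 lower, 13 hypoxia genes lower, and 7 mTORC1 regulators higher and 8 lower. Leaving out single libraries gave 0 to 1 transporters lower (0 without DMSO replicate 2 or NCD replicate 2) and 1 to 2 ATF6 arm genes higher (2 without DMSO replicate 2 or NCD replicate 3). They also gave 3 to 4 transporters higher, 3 to 4 relatives higher and 4 to 5 lower, 7 to 8 p53 targets higher and 7 to 9 hypoxia genes lower. The cause of the shift under library totals was not tested.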
